A study of Homo sapiens with 2 samples.

Results

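The 5 genes of the CD1 family (CD1A, CD1B, CD1C, CD1D and CD1E), the recombinase genes RAG1 and RAG2, DNTT, PTCRA and ARPP21 were read from a table of 60586 genes in 2 human leukaemia cell lines. They and the gene lists below were chosen by name with earlier results of these data known. Shares over all tested genes are therefore set beside their counts as a description only. All 10 genes were found in the table and tested by the authors. MOLT4 is a T cell acute lymphoblastic leukaemia line that the labels call a T lymphoblast. K562 is a chronic myeloid leukaemia line with red cell features that the labels call an erythrocyte. Both are untreated lines, grown in the same DMEM medium, so the comparison is between lines of different origin and not between a line and a normal cell. The table gives 1 FPKM (fragments per transcript length and library size) per gene and line, so the spread over replicates is not visible. The series' design text states 3 biological replicates, whereas 1 sample per line is listed. If the authors' p-values and q-values (Cuffdiff, with Benjamini-Hochberg adjustment over 18870 tested genes) rest on 1 library per line, they compare libraries and not lines. A gene is termed called here where the q in the authors' deposited table was at most 0.05.

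These genes belong to the stage at which a thymocyte, an immature T cell in the thymus, builds its receptor. RAG1 and RAG2 form the recombinase that cuts the receptor genes at their recombination signals, and DNTT (terminal deoxynucleotidyl transferase) adds bases without a template at the joints. PTCRA encodes the pre-T alpha chain, which pairs with a newly made receptor beta chain before an alpha chain exists. CD1 proteins resemble MHC class I heavy chains and present lipids: CD1A, CD1B and CD1C form one group, CD1D presents to natural killer T cells, and CD1E works inside the cell as a helper of lipid loading. CD1A is a standard marker of cortical thymocytes. ARPP21 is a phosphoprotein first known from the brain, and a long form of it was described in mouse thymocytes.

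All 10 genes were higher in MOLT4, and none reached 1 FPKM in K562. Together they summed to 1009 FPKM (MOLT4) and 1.85 FPKM (K562). In the authors' deposited table, 8 of the 10 were called higher in MOLT4, where 18.8% of all tested genes were, and none was called higher in K562, where 23.4% were (42.2% in either direction). At a q of 0.01 the count toward MOLT4 was still 8, against 15.4% of tested genes. The 2 that were not called were PTCRA and ARPP21. All 10 differed at least 4-fold on the scale of log2(FPKM + 1), as did 5.35% of tested genes toward MOLT4 and 7.92% toward K562. The median log2((MOLT4 + 1)/(K562 + 1)) was 5.26 over the 10 genes, with a range from 2.51 to 8.33, and -0.06 over all tested genes. Adding 1 FPKM shrinks the ratios of genes with low levels.

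**Figure D1:**
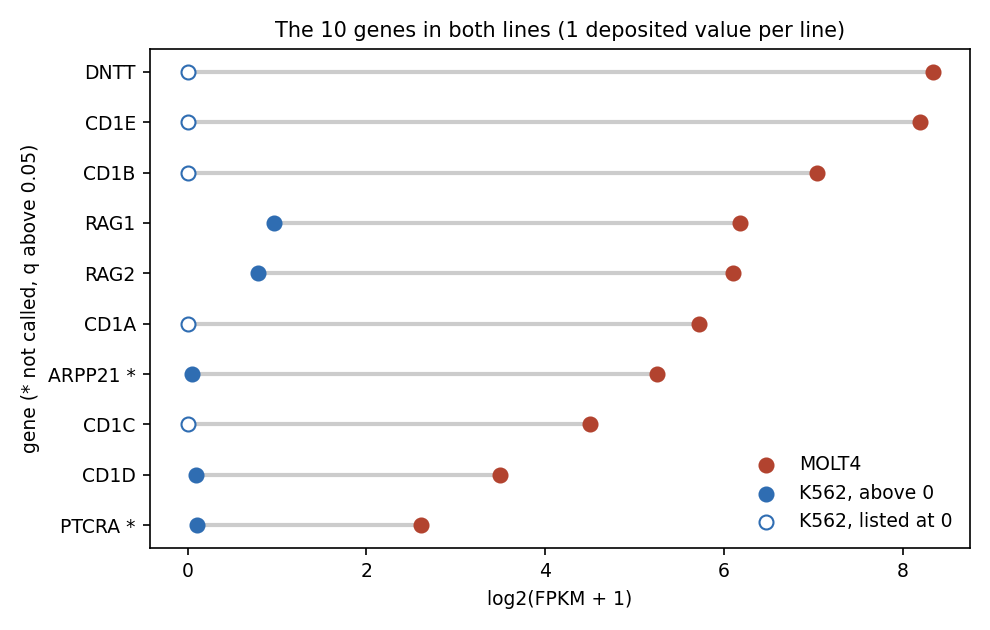
Level of the 10 genes in each line, in log2(FPKM + 1), ordered by the level in MOLT4. Each point is 1 deposited value, open points are listed at 0, and the bar joins the lines: all 10 MOLT4 points lie to the right, from 5.12 FPKM (PTCRA) to 322 FPKM (DNTT), while no K562 value passes 0.949 FPKM (RAG1).

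The labels were set against marker genes. Of 6 T lineage markers, 4 were called higher in MOLT4 in the authors' deposited table, as were 18.8% of all tested genes. All 6 ranged from 23.9 to 574 FPKM there, and CD3D was at 29.7 FPKM in K562. Of 6 erythroid markers, 4 were called higher in K562, as were 23.4% of all tested genes. The 6 markers ranged from 58.9 to 228 FPKM in K562 and reached at most 0.139 FPKM in MOLT4. Dendritic and Langerhans cells also carry CD1, and B cell precursors also use RAG and DNTT. Of 7 dendritic and Langerhans markers, 4 (CD207, CLEC10A, ITGAX and FCER1A) were listed at 0 in MOLT4. The list summed to 1.71 FPKM (MOLT4) and 1.86 FPKM (K562), and its highest MOLT4 level was 1.09 FPKM (FLT3). The 6 B lineage markers summed to 3.28 FPKM (MOLT4) and 2.06 FPKM (K562). Of the 6, the authors' deposited table called CD79B alone, at 0.719 FPKM (MOLT4) and 0.244 FPKM (K562) with q = 0.0362. CD79A was at 1.89 and 0.0373 FPKM, EBF1 at 0.178 and 0.0521 FPKM and PAX5 at 0.00895 and 0.0178 FPKM, while MS4A1 was listed at 0 in MOLT4 and at 0.0277 FPKM in K562. The part of other cell types in the levels of the 10 genes was not tested.

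The CD1 family genes were unequal in MOLT4 and almost silent in K562. CD1E was at 292 FPKM in MOLT4 with K562 listed at 0. CD1B was at 131 FPKM and listed at 0, CD1A at 51.6 FPKM and listed at 0, and CD1C at 21.6 FPKM and listed at 0. CD1D was at 10.3 FPKM (MOLT4) and 0.0650 FPKM (K562), a 159-fold difference. The highest family member in MOLT4 thus stood 28.3-fold over the lowest. CD1E made up 57.7% of the family's summed FPKM in MOLT4 and CD1B 25.8%, whereas CD1A, the usual cell surface marker, came after both. In the authors' deposited table all 5 had p = 5e-05, the smallest value listed, and q = 0.000203. This p is shared by 4647 genes, so it does not rank them.

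Family members can share reads where their sequences match. Of all 50-base windows in the protein-coding transcripts of GENCODE release 29, the share also found in another CD1 gene was 3.66% for CD1B, 2.59% for CD1A, 1.66% for CD1E and 0.454% for CD1D. CD1C shared none. The sources used here do not give the read length, and the part that shared windows play in the levels was not tested.

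The CD1 genes lie side by side on chromosome 1 (GRCh38), in the order CD1D, CD1A, CD1C, CD1B and CD1E, over 178 kb from 158179947 to 158357553. CD1B is on the minus strand and the others are on the plus strand. In MOLT4 the levels along this order were 10.3, 51.6, 21.6, 131 and 292 FPKM, so the pair at the CD1E end was the highest. A window of 500 kb on each side of the cluster held 43 other genes, of which 5 reached 1 FPKM in a line and 4 are described here. Between CD1D and CD1A lie 2 of these, both on the minus strand. AL138899.2, which GENCODE types as a processed pseudogene (158195633 to 158196131), was at 24.2 FPKM (MOLT4) and 0.0302 FPKM (K562). AL138899.1, a long intergenic RNA gene (158197922 to 158203877), was at 12.9 and 0.0316 FPKM. Both were thus above CD1D in MOLT4, and in the authors' deposited table the second was called (q = 0.0154) and the first was not (q = 0.242).

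Farther out, KIRREL1, an adhesion protein gene, was at 5.93 FPKM (MOLT4) and 0.0411 FPKM (K562). AL365440.2, an antisense RNA gene, was at 5.01 FPKM in MOLT4 with K562 listed at 0. Both were called in the authors' deposited table (q = 0.000203). The 21 olfactory receptor genes and pseudogenes of the same window reached at most 0.196 FPKM in either line.

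**Figure D2:**
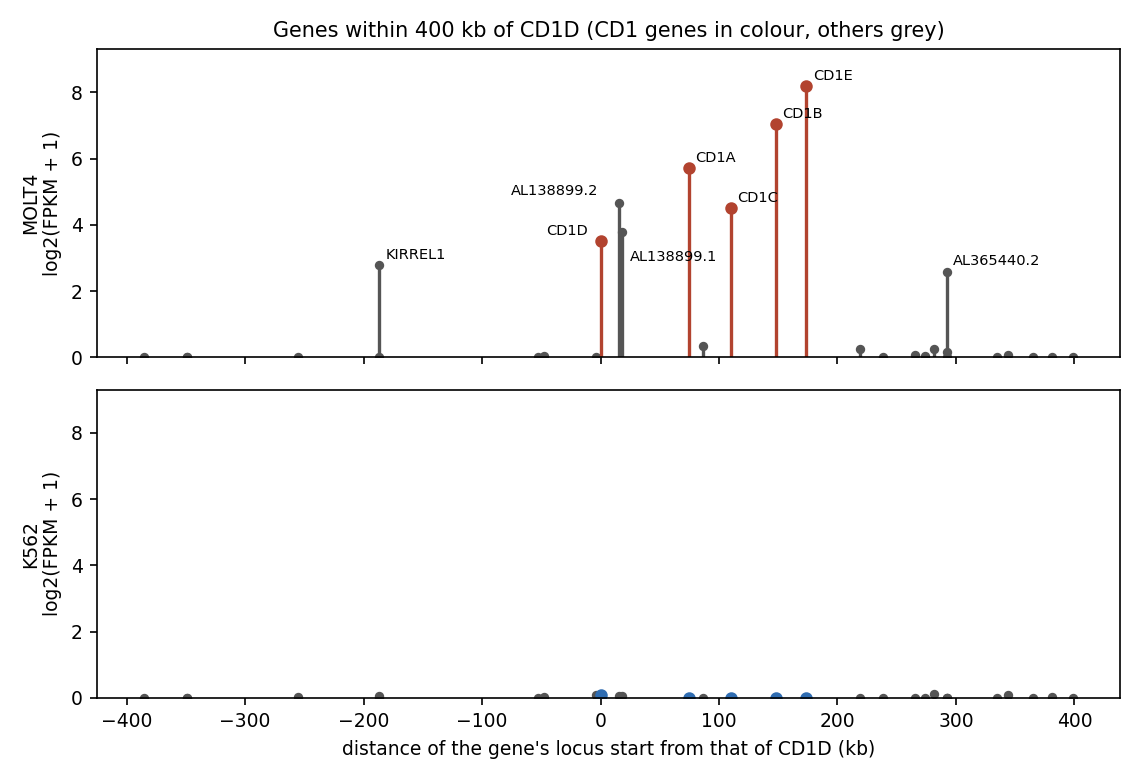
Level of the genes whose locus starts within 400 kb of that of CD1D, in log2(FPKM + 1), against the distance of its locus start from that of CD1D in kb (MOLT4 above, K562 below; CD1 genes in colour, other genes in grey). In MOLT4 the CD1 genes, the AL138899 pair beside CD1D, KIRREL1 and AL365440.2 pass 1 FPKM, and in K562 no plotted gene reaches 1 FPKM.

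CD1 proteins depend on a light chain and on lipid handling and sorting proteins. Of 17 such genes, 2 were called toward MOLT4 and 5 toward K562 in the authors' deposited table. Over all tested genes these shares were 18.8% and 23.4%, so the counts lie near the background. Another 9 were not called, and 1 (MTTP, a lipid transfer protein gene) was not tested. Toward MOLT4 were B2M, the light chain shared with MHC class I, at 1523 against 891 FPKM, and the chaperone gene CALR at 704 against 389 FPKM. Toward K562 were, among others, AP3M1, an adaptor subunit of sorting to lysosomes, at 45.5 FPKM (MOLT4) and 86.5 FPKM (K562), and PDIA3, a disulfide isomerase, at 146 and 274 FPKM. The median log2 ratio of the 16 tested genes was -0.36, against -0.06 over all tested genes.

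RAG1 and RAG2 stood close together in each line. RAG1 was at 71.3 FPKM (MOLT4) and 0.949 FPKM (K562), a 75.1-fold difference. RAG2 was at 67.6 FPKM (MOLT4) and 0.725 FPKM (K562), a 93.2-fold difference. The ratio of RAG1 to RAG2 was 1.06 in MOLT4 and 1.31 in K562, and without replicates neither can be told from 1. Both genes had q = 0.000203 in the authors' deposited table.

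RAG1 and RAG2 had the highest K562 levels of the 10 genes, although DNTT and CD1E, which were higher than both in MOLT4, were listed at 0 there. The lowest values of long single-transcript genes pile up at a first step, taken as the worth of about 1 fragment. Within 0.1 of it lay 70 values in MOLT4 and 74 in K562, while 4 and 9 lay below it. Only 27 and 19 lay within 0.1 of the second step, and 30 and 49 lay between the steps. The second step is thus unclear, above all in K562. With the first step as 1 fragment, the K562 values rest on about 679 fragments for RAG1 and 222 for RAG2. They rest on only about 16 for CD1D, 14 for ARPP21 and 9.6 for PTCRA. These numbers assume the longest protein-coding transcript and are rough.

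The recombinase genes lie on chromosome 11, RAG1 on the plus strand (36510709 to 36593156) and RAG2 on the minus strand (36575574 to 36598279). In GENCODE release 29 their exons share 588 bases on opposite strands, and RAG2 shares 321 exonic bases with C11orf74. The sources used here do not say how strand was used in counting, so reads from these shared stretches cannot be told apart. The authors' table sets all 3 genes in 1 locus. C11orf74 was at 4.86 FPKM (MOLT4) and 10.3 FPKM (K562), the opposite order to the recombinase genes, without a call in the authors' deposited table (q = 0.287). Of the 5 other genes within 500 kb that reached 1 FPKM, C11orf74 included, none was called higher in MOLT4. The share over all tested genes was 18.8%. TRAF6, just before RAG1, was at 6.78 and 7.64 FPKM. COMMD9 was at 21.4 FPKM (MOLT4) and 23.7 FPKM (K562), and PRR5L at 1.09 and 0.580 FPKM. LDLRAD3 was at 0.0714 FPKM (MOLT4) and 5.34 FPKM (K562) and was called higher in K562.

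DNTT was the highest of the 10 genes, at 322 FPKM in MOLT4 with K562 listed at 0. Its MOLT4 level ranked 257 of all listed genes. Among the 417 tested genes listed at 0 in K562, DNTT ranked 2 by its level in MOLT4, CD1E 4, CD1B 6, CD1A 11 and CD1C 27. DNTT lies on chromosome 10 (96304396 to 96338564, plus strand). The 9 neighbours within 500 kb that reached 1 FPKM were divided in the authors' deposited table. Of them, 3 were called toward MOLT4, 2 toward K562 and 4 were not called, where 18.8% and 23.4% of all tested genes were called. TM9SF3, the highest of the 9, was at 49.2 and 52.8 FPKM. ZNF518A, upstream, was at 15.7 FPKM (MOLT4) and 13.4 FPKM (K562).

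DNTT belongs to family X of the DNA polymerases, whose other members fill gaps in repair. Of the 4, DNTT included, 2 were called toward MOLT4, 1 toward K562 and 1 was not called in the authors' deposited table. Their median log2 ratio was 1.18. The shares called over all tested genes were 18.8% (MOLT4) and 23.4% (K562), with a median log2 ratio of -0.06. POLM, which acts at light chain joints in mice, was at 11.7 FPKM (MOLT4) and 2.06 FPKM (K562) and was called in the authors' deposited table (q = 0.000203). POLL was at 0.106 FPKM (MOLT4) and 7.68 FPKM (K562), a 72.7-fold difference in the other direction (q = 0.000203). POLB, the polymerase of base excision repair, was at 54.6 and 43.6 FPKM with no call (q = 0.236).

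The breaks made by the recombinase are closed by end joining proteins found in most cells. Of 14 such repair genes and recombinase cofactors, which include POLL and POLM, 7 were called toward MOLT4, 1 (POLL) toward K562 and 6 were not called in the authors' deposited table. Of all tested genes, 18.8% were called toward MOLT4 and 23.4% toward K562. The 14 genes had a median log2 ratio of 0.58, against -0.06 over all tested genes. HMGB1 and HMGB2, DNA-bending proteins that assist the recombinase, were at 1257 and 1277 FPKM (MOLT4) against 463 and 439 FPKM (K562). LIG4, the ligase of end joining, was at 13.2 against 4.17 FPKM. The nuclease gene DCLRE1C (Artemis), which opens the hairpin ends, was at 11.3 FPKM (MOLT4) and 10.4 FPKM (K562) without a call (q = 0.756 in the authors' deposited table). All 14 genes were thus at 2.06 FPKM or more in K562, where DNTT was listed at 0.

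PTCRA was the lowest of the 10 genes, at 5.12 FPKM (MOLT4) and 0.0787 FPKM (K562). It was not called despite a 65.1-fold difference (p = 0.0886, q = 0.166 in the authors' deposited table). The genes of the T cell receptor chains, of which the alpha chain is not a partner of PTCRA, were spread widely in MOLT4. The receptor beta constant genes TRBC2 and TRBC1 were at 3303 and 15.5 FPKM, the alpha constant gene TRAC was at 13.9 FPKM, and the CD3 and zeta chain genes CD3E, CD3G and CD247 were at 446, 183 and 61.5 FPKM. In K562, TRBC2 was at 21.1 FPKM and TRBC1 at 22.7 FPKM, the latter without a call (q = 0.0708 in the authors' deposited table). PTCRA lies on chromosome 6 (42915989 to 42925835, plus strand) in a gene-dense stretch, where 25 neighbours within 500 kb reached 1 FPKM. Of these, 6 were called toward MOLT4, 8 toward K562 and 11 were not called in the authors' deposited table. Shares over all tested genes were 18.8% and 23.4%, so the counts lie near the background. The next gene downstream in the table, CNPY3, a chaperone of Toll-like receptors, was at 78.7 FPKM (MOLT4) and 22.7 FPKM (K562), and RPL7L1 upstream was at 79.9 and 109 FPKM.

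B cell precursors have a counterpart of this chain, the surrogate light chain made of VPREB1 and IGLL1. Over 13 genes of both receptors, PTCRA included, 8 were called toward MOLT4 and none toward K562 in the authors' deposited table. Another 4 were not called, and VPREB3 was not tested. Of all tested genes, 18.8% were called toward MOLT4 and 23.4% toward K562. The median log2 ratio of the 12 tested was 3.71, against -0.06 over all tested genes. VPREB1 was at 6.45 FPKM in MOLT4 with K562 listed at 0. IGLL1, named after its values were seen, was at 18.4 FPKM (MOLT4) and 0.0158 FPKM (K562) without a call (q = 0.359 in the authors' deposited table). Both surrogate chain genes thus had higher FPKM in MOLT4 than PTCRA.

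E-box or GATA motifs, which E proteins and GATA factors can bind, were found in start regions of PTCRA, CD1C, DNTT, ARPP21, RAG1 and RAG2. Those of CD1A, CD1D and CD1E held none of the motifs marked here. The RAG1 region overlaps TRAF6 on the other strand. The regions of PTCRA, CD1C and DNTT are shown as examples. Each is the 250 bases before the gene's start in RefSeq (build GRCh38.p14), 5′ to 3′ on the gene's strand, with the E-boxes CAGCTG or CACCTG and the GATA motif AGATAA, read on either strand, in capitals. The coordinates are chr6:42915803-42916052, chr1:158289673-158289922 and chr10:96304184-96304433.
PTCRA: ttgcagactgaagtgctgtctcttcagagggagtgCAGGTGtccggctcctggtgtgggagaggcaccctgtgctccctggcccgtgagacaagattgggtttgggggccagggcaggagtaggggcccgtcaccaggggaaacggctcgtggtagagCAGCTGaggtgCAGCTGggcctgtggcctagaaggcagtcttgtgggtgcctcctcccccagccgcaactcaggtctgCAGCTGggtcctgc
CD1C: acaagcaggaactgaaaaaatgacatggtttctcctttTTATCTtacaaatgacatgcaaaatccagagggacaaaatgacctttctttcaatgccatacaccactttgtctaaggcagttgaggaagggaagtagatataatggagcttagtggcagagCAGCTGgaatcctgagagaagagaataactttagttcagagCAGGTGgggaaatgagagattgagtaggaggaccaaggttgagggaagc
DNTT: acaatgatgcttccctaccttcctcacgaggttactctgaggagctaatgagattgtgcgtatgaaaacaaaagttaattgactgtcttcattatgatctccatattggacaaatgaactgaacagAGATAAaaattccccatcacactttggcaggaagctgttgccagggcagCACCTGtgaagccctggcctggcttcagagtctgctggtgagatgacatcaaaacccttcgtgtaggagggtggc

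RefSeq start regions were found for 9 of the 10 genes, and for genes with several the one nearest to the GENCODE start was taken. In windows of 300 bases, 50 of them after the start, CAGCTG was present in 3 of 9 genes (CD1C, PTCRA and RAG1) and in 17.9% of all 35116 windows. The RAG1 match lies 115 bases before a RefSeq start at 36510353, which is 356 bases from the GENCODE start. It falls within TRAF6 (minus strand, 36487027 to 36510272), so this stretch is not of RAG1 alone. CACCTG was present in 4 of 9 (ARPP21, CD1C, DNTT and PTCRA) and in 20.6% of all windows. AGATAA was present in 3 of 9 (CD1C, DNTT and RAG2) and in 10.3% of all. PTCRA held CAGCTG at 3 places, which lie 92, 81 and 14 bases before the start, and 0.21% of all windows held at least 3. This cut was not planned and equals the PTCRA count, so the share is a description only. The other motifs were also searched on both strands. The RUNX motif TGTGGT was in 1 of 9 members and 13.1% of all windows, and the RBPJ motif TGGGAA in 1 of 9 members and 24.0%. A second form of the GATA motif, TGATAA, was in 0 of 9 members and 7.53% of all windows. The ETS motif ACAGGAAG was in 0 of 9 members and 2.99%, and the heptamer of the recombination signal, CACAGTG, in 0 of 9 members and 5.36%. No motif overlaps another in the sequences shown. A match is a description of the letters and does not show binding.

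Factors known from other work to act on these genes were themselves mostly higher in MOLT4. Of 14, 10 were called toward MOLT4 and 3 toward K562 in the authors' deposited table, against 18.8% and 23.4% of all tested genes. FOXO1, a factor that drives RAG expression in mice, was not tested, at 0.318 FPKM in both lines. The chromatin organiser gene SATB1 was at 87.6 FPKM (MOLT4) and 0.0123 FPKM (K562), GATA3 at 38.3 and 0.0895 FPKM, and NOTCH1 at 56.1 and 5.88 FPKM. The E protein genes TCF3 and TCF12, whose products bind E-boxes, were at 174 and 87.0 FPKM (MOLT4) against 101 and 43.3 FPKM (K562). Their inhibitors were divided. ID1 was at 3.33 FPKM (MOLT4) and 55.3 FPKM (K562), and ID2 at 3.47 and 16.8 FPKM, whereas ID3 was at 26.8 FPKM (MOLT4) and 9.64 FPKM (K562). TCF4, a further E protein gene, was the remaining one called higher in K562, at 8.63 against 16.3 FPKM. The median log2 ratio of the 13 tested genes was 1.38, against -0.06 over all tested genes.

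**Figure D3:**
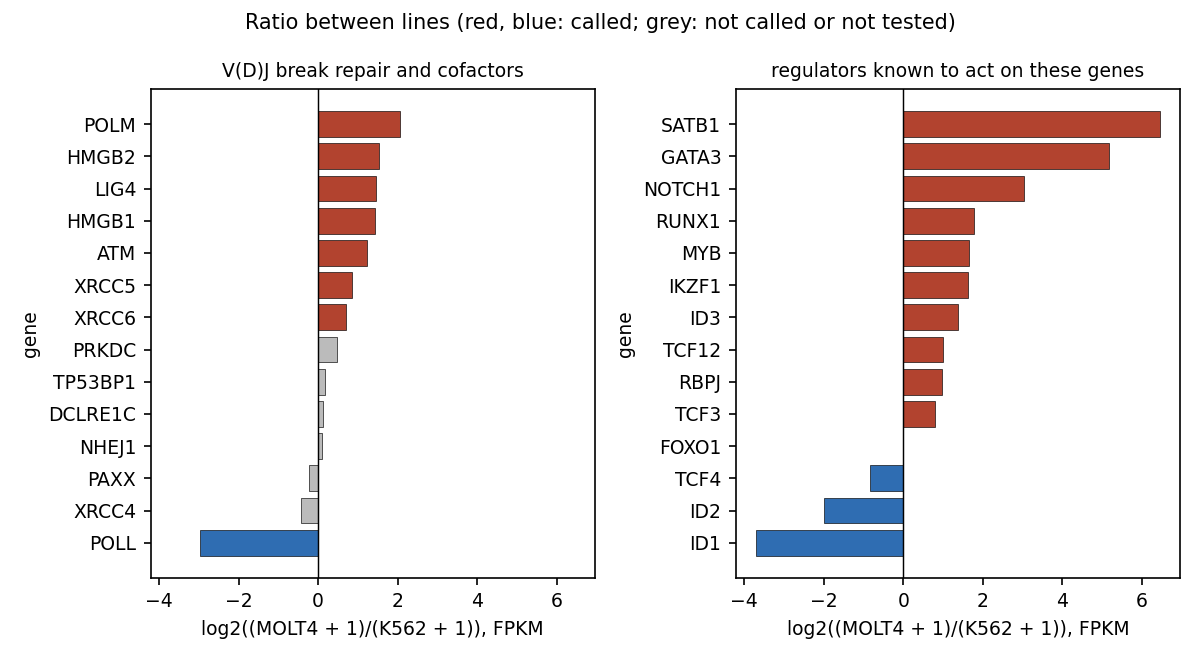
log2((MOLT4 + 1)/(K562 + 1)) of the repair genes and cofactors (left) and of the regulators (right). Each bar is 1 gene, red bars were called higher in MOLT4, blue bars higher in K562, and grey bars were not called or not tested. The bars reach from POLL at -2.97 to POLM at 2.05 on the left and from ID1 at -3.70 to SATB1 at 6.45 on the right.

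ARPP21 was at 37.0 FPKM (MOLT4) and 0.0363 FPKM (K562). This 1021-fold difference was the largest of the 5 genes with a K562 value above 0, and yet it was not called (p = 0.212, q = 0.327 in the authors' deposited table). Such cases were common. In the authors' deposited table, among the 252 tested genes at 5 FPKM or more in MOLT4 and above 0 but under 0.1 FPKM in K562, 58.7% were called. The share was 77.6% of the 76 such genes listed at 0 in K562 and 92.6% of the 296 at 0.1 to under 1 FPKM in K562. CD1D, PTCRA and ARPP21 fall in the first of these groups, and CD1D alone of them was called. GENCODE release 29 lists 35 transcripts of ARPP21, 22 of them protein-coding, against 1 of CD1D and 4 of PTCRA. Among the other called members, CD1E has 15, RAG2 9, RAG1 3, CD1B, CD1C and DNTT 2 each, and CD1A 1. The part that transcript number plays in the calls was not tested.

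ARPP21 lies on chromosome 3 (35638945 to 35794496, plus strand), and none of the 6 other genes within 500 kb reached 1 FPKM in either line. ARPP21-AS1, in the same locus, was at 0.728 FPKM in MOLT4 with K562 listed at 0. An intron of ARPP21 holds the miRNA gene MIR128-2, and its relative R3HDM1 holds MIR128-1. Both give the same miR-128-3p. The 2 miRNA genes were listed at 0 in both lines in these long RNA libraries and were not tested, so their level is not shown. The mature sequences are printed with the seed, bases 2 to 8, in capitals, to show that the arms from both hosts share their seeds (RefSeq, GRCh38.p14, chr3:35744527-35744547 and chr2:135665446-135665466 for the 3p arms, chr3:35744490-35744512 and chr2:135665411-135665433 for the 5p arms).
hsa-miR-128-3p of both genes: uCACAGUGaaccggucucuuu
hsa-miR-128-2-5p: gGGGGCCGauacacuguacgaga
hsa-miR-128-1-5p: cGGGGCCGuagcacugucugaga

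R3HDM1 was at 78.9 FPKM (MOLT4) and 43.3 FPKM (K562) and was called higher in MOLT4 (q = 0.00204 in the authors' deposited table). In a list of 6 genes set around ARPP21, itself included, 3 were called toward MOLT4 and 1 toward K562 in the authors' deposited table. The shares over all tested genes were 18.8% and 23.4%. The list had a median log2 ratio of 0.70, against -0.06 over all tested genes. Kinship of its members ARPP19 and ENSA to ARPP21 is not shown here. R3HDM2 was at 27.1 against 15.5 FPKM and ARPP19, a phosphatase inhibitor active in mitosis, at 83.3 against 53.1 FPKM. R3HDM4 was at 21.7 FPKM (MOLT4) and 71.8 FPKM (K562). The other 5 genes of the list were all at 15.5 FPKM or more in K562, where ARPP21 was at 0.0363 FPKM.

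**Figure D4:**
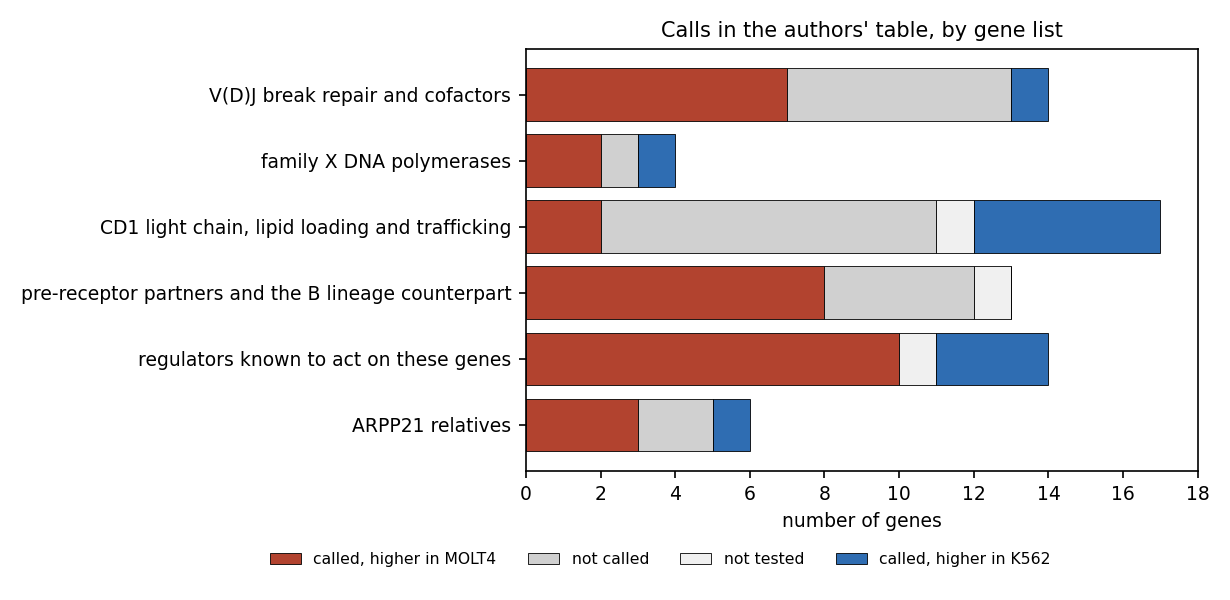
Number of genes in each list that the authors' table called higher in MOLT4 (red) or higher in K562 (blue), did not call (grey) or did not test (light grey). Red covers 10 of 14 regulators and 2 of 17 CD1 partners, and blue 3 and 5 of them, where 18.8% and 23.4% of all tested genes were called toward MOLT4 and K562.

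The order of the 10 genes by FPKM, which is per length, was DNTT, CD1E, CD1B, RAG1, RAG2, CD1A, ARPP21, CD1C, CD1D and PTCRA in MOLT4. Neighbours in this order differed by 1.06-fold (RAG1 over RAG2) to 2.24-fold (CD1E over CD1B), with 1.10-fold for DNTT over CD1E. Without replicates no step of this order can be tested. By likeness, the 3 other tested genes closest to the median of the 10 on log2(FPKM + 1) were AL358333.3 at 62.2 FPKM (MOLT4) and 0.0321 FPKM (K562), TRAT1 at 55.8 FPKM and listed at 0, and CD247 at 61.5 and 0.0732 FPKM. TRAT1 and CD247 encode parts of the T cell receptor complex. The distances were 0.08, 0.08 and 0.09 log2 units, over 2 values per gene, so they are a description only.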

How the data were processed

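RNA from 2 untreated cell lines was sequenced, and titles gave the groups. The submitters' processing notes name Cuffdiff, Cufflinks 2.2.2, TopHat2 2.1.1 and CASAVA 1.8.2, and the builds hg38 and GRCh38.p13. The authors deposited FPKM, with 1 value per gene and line, and beside them a Cuffdiff p-value and its adjusted q-value. Scaling between lines, strand use and pooling are not given in the sources used here. No fold is given against a listed 0.

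The 10 genes and all gene lists were chosen with earlier results of these data known. From the FPKM, log2((MOLT4 + 1)/(K562 + 1)), medians and counts of the authors' calls were computed with Python 3.11.15 and pandas 2.3.3. No test was added. Genes were named as members, as the called genes with the largest ratio or the less common direction in each list (up to 4), and as neighbours at 1 FPKM or more. Others in the lists, such as POLB, DCLRE1C, IGLL1, TRBC1, TRAC, TCF3, TCF12 and ID3, were named after their values were seen. Annotation is GENCODE release 29. Motif search and step finding were tested on simulated data. A planned protein comparison was not run, and 3 genes of the lists and neighbourhoods are not reported here. Total counts per library were not used here. Instead, FPKM times length was computed for genes with 1 transcript over 3000 bases. Its lowest common value was 0.0117 FPKM kb in MOLT4 and 0.00918 FPKM kb in K562, taken as about 1 fragment. This measure was chosen after seeing the data. It covers counting only and gives no interval. Other pseudocounts (0.1 and 0.01 FPKM), scalings, a filter and thresholds were tried.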

Additional observations from a re-analysis of the deposited data

How the results depend on the processing

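The 10 genes kept their direction toward MOLT4 in all 40 ratios computed with other pseudocounts and scalings, from 2.53 to 15.0 on the log2 scale. All 10 stayed past 4-fold in each of these settings and with a filter at a mean of 1 FPKM. The count of called genes was 8 at a q of 0.01, where 15.4% of all tested genes were called toward MOLT4. It was 10 by the fold alone, which 5.35% of all tested genes passed toward MOLT4. It was 8 with fold and q together, a setting added after seeing the data. For that setting no share over all tested genes was computed. The median log2 ratio moved from 5.26 to 7.93 and 10.36 with pseudocounts of 0.1 and 0.01 FPKM, to 5.29 with the median ratio set to 0 and to 5.77 with both lines set to the same sum. The size of a change is therefore bound to the pseudocount, most of all for the 5 genes listed at 0 in K562. At a q of 0.01 the CD1 partners called higher in K562 fell from 5 to 3. The share of all tested genes called higher in K562 at this q was not computed. The genes of the ARPP21 list called higher in MOLT4 fell from 3 to 1, while the share of all tested genes fell from 18.8% to 15.4%. No paired analysis was possible because each line has 1 value per gene, and for the same reason no replicate could be left out. The K562 values of CD1D, PTCRA and ARPP21 rest on about 16, 9.6 and 14 fragments. CD1D was called and the other two were not, and the part of depth in these calls was not tested.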
